A study of Mus musculus with 2 samples.

Results

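The ERBB receptors and their ligands were followed through snRNA-seq of interscapular BAT from 8-week-old male mice. The set held 10 genes of the 32285 counted: the 4 receptors Egfr, Erbb2, Erbb3 and Erbb4, and the ligands Nrg1, Nrg4, Hbegf, Areg, Btc and Ereg. They were found by symbol, and all 10 were counted in both libraries. The members were chosen by their measured WT and KO levels in the classes of nuclei, above all the lower Erbb4 and higher Egfr of KO adipocytes, so every difference below is a description and carries no test. WT mice were Srsf1 flox/flox littermates without Cre, and KO mice were Adipoq-Cre; Srsf1 flox/flox, in which the Adipoq promoter drives Cre in adipocytes. Both groups therefore carry the floxed Srsf1 alleles, and only KO carries the Cre transgene. There was 1 library per genotype, the number of mice behind each is not given in the sources used here, and genotype and library cannot be told apart.

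ERBB receptors are receptor tyrosine kinases that work as pairs. EGFR binds ligands such as HB-EGF, amphiregulin, betacellulin and epiregulin, ERBB3 and ERBB4 bind neuregulins, ERBB4 also binds betacellulin and HB-EGF, and ERBB2 has no known ligand of its own and acts as a partner. Most of the ligands are made as membrane proteins and released by proteases, and the occupied receptors signal through RAS-ERK, PI3K-AKT, STAT and PLC-gamma. Neuregulin 4 is known as a factor secreted by brown adipocytes that binds ERBB4, and EGFR is present on many cell types, fibroblasts among them.

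In 10x droplet data, transcripts are counted by unique molecular identifiers (UMIs), and levels are given here as UMIs per 1000000 UMIs of a class of nuclei (CPM). Nuclei were called by the summed UMIs of marker lists as adipocytes, adipose stem and progenitor cells (ASPCs), endothelial cells, macrophages, mural cells, Schwann cells and smaller classes. The calls gave 3871 WT and 2219 KO adipocyte nuclei, 386 and 1701 ASPC, 2347 and 1246 endothelial, 422 and 2481 macrophage, and 434 and 263 mural nuclei, while 40.1% of WT and 28.8% of KO nuclei received no class. In each of these 5 classes, all markers found in the files were at least 1.5 times as high as in the other nuclei of the library, apart from 1 of the 8 adipocyte markers in WT. The same markers made the calls, so this is a description and no separate check of them. The targeted gene Srsf1 had 189 CPM in WT and 61.2 CPM in KO adipocyte nuclei. Adipocyte marker RNA was also present in nuclei called as other classes, at 1927 to 5595 CPM in the WT ASPC, endothelial, macrophage and mural nuclei and 668 to 2636 CPM in the KO ones, against 10945 and 8745 CPM in adipocytes. The median mitochondrial share was 1.10% in WT and 0.0489% in KO, and 52 cell barcodes occurred in both libraries. Intervals are exact 95% intervals and cover counting error only. Transcripts were counted from nuclei, so levels of a gene are compared between classes and libraries and never between genes of different length.

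Promoter windows of 3 members are shown because Erbb4 and Btc had the lowest and Egfr the highest KO levels relative to WT among the members with over 200 UMIs in adipocytes. The windows are from RefSeq on GRCm38.p6, run from 250 bases before to 50 bases after the annotated start, and are written 5′ to 3′ on the strand of the gene. Entries matched 6 of the 10 members, namely Egfr, Erbb2, Erbb4, Nrg4, Areg and Btc. Capitals mark a match to 1 of 7 short motifs searched on both strands.
Erbb4 (chr1:69108010-69108309, minus strand): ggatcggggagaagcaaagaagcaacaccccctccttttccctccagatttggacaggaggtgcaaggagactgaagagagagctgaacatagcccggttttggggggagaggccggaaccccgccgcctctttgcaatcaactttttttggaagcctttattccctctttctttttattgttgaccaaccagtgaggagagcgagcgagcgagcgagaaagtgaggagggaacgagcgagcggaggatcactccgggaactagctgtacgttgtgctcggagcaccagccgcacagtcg
Btc (chr5:91402945-91403244, minus strand): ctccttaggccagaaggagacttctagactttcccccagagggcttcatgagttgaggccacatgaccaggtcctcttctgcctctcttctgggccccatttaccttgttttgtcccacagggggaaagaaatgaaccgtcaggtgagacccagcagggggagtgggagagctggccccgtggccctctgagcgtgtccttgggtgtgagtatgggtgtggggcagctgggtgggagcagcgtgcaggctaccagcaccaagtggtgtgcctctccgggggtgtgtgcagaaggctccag
Egfr (chr11:16751953-16752252, plus strand): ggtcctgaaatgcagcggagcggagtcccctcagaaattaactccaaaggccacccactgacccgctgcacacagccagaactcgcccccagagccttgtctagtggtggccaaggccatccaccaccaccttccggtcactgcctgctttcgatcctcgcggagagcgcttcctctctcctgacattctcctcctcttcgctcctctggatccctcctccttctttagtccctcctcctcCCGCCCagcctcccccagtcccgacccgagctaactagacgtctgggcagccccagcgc
The motifs were the TATA box TATAAA, the CCAAT box, the GC box GGGCGG, the cAMP response element TGACGTCA, the estrogen-related receptor element TCAAGGTCA, the direct repeat bound by PPARG with RXR and the AP-1 site TGANTCA. They occurred in 13.6%, 37.4%, 35.7%, 1.79%, 0.423%, 0.0396% and 7.81% of the 32851 windows of all genes. The Egfr window held 1 GC box on the reverse strand, which starts at base 242, and the Erbb4 and Btc windows held none of the 7. The Erbb4 window had 17 CpG and the Egfr window 15, while the Btc window had 5, against a median of 7 over all windows. A match is a description of letters, and none of these windows was assayed here.

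Erbb4 (ENSMUSG00000062209), the neuregulin receptor, lies on the minus strand of chromosome 1 from 68032186 to 69108059 on GRCm38. WT adipocyte nuclei held 60401 Erbb4 UMIs, or 1755 CPM (1741 to 1769), and KO adipocyte nuclei 970, or 51.1 CPM (47.9 to 54.4). The level was 34.4-fold lower in KO, or -5.10 (-5.20 to -5.01) as the log2 ratio of KO to WT. Of 17056 genes with at least 20 UMIs in adipocytes over both libraries, 119 had a lower ratio. In the annotation 8 genes overlap Erbb4, all on its own strand, and the 1 of them that was counted had 3 UMIs in WT and 0 in KO adipocytes.

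**Figure D1:**
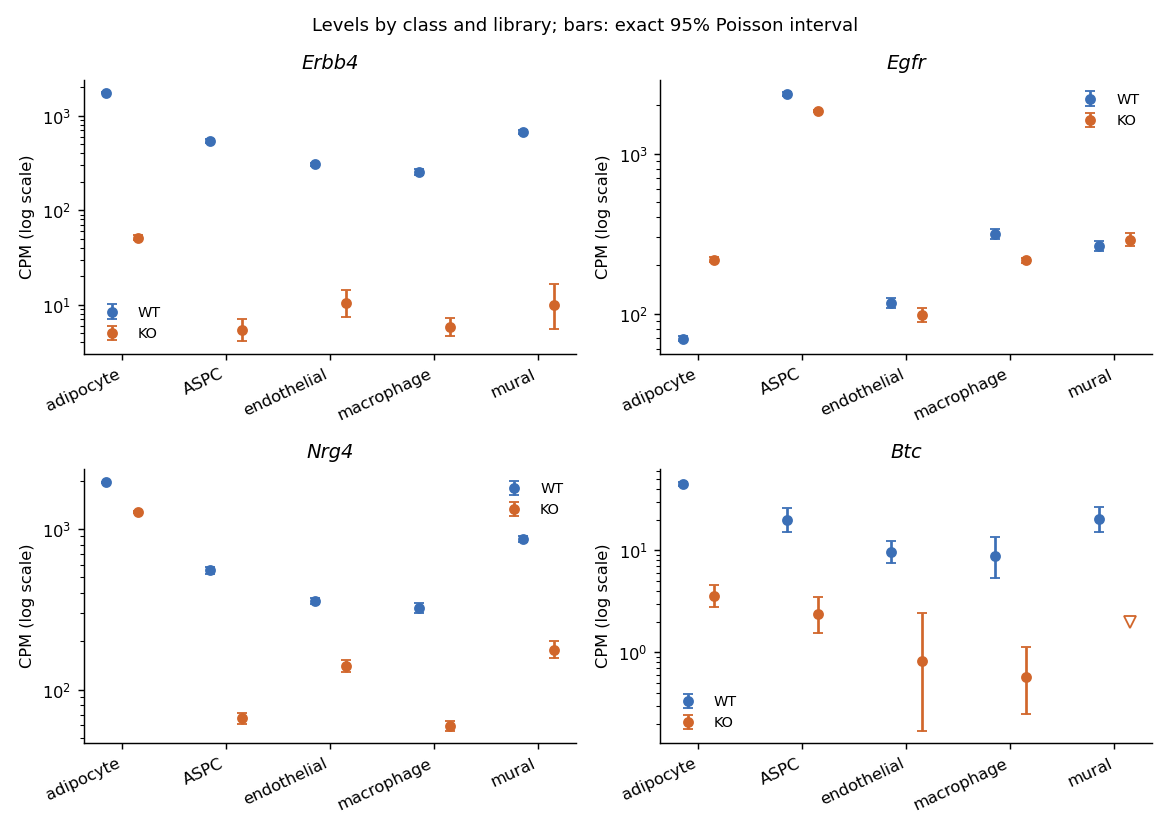
Levels of Erbb4, Egfr, Nrg4 and Btc in CPM (log scale, a separate range in each panel) in 5 classes of nuclei. Blue points are the WT and orange points the KO library, bars are exact 95% Poisson intervals, and the open triangle is the limit from 3 counts where KO mural nuclei had 0 Btc UMIs. Erbb4 was lower in KO in every class shown, while Egfr was higher in KO adipocytes and lower in KO ASPCs.

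Of the WT adipocyte nuclei 96.4% held an Erbb4 UMI, and of the KO ones 12.1%, with a median depth of 7210 UMIs in WT and 6621 in KO. After thinning of each nucleus to 1000 UMIs, which 15 WT and 26 KO nuclei did not reach, the shares were 73.8% (72.3 to 75.1) and 4.06% (3.27 to 4.97). WT endothelial nuclei, used for comparison, held 4326 CPM of adipocyte markers and 677 CPM of Ucp1. Of them 41.2% held an Erbb4 UMI without thinning (median depth 2284 UMIs), and the thinned share was 20.8% with 95 nuclei left out. Of the KO endothelial nuclei 1.61% held one without thinning (median depth 2202 UMIs), and the thinned share was 0.939% with 75 left out. The thinned share of WT adipocytes was thus above that of WT endothelial nuclei, and that of KO adipocytes above that of KO endothelial nuclei.

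**Figure D2:**
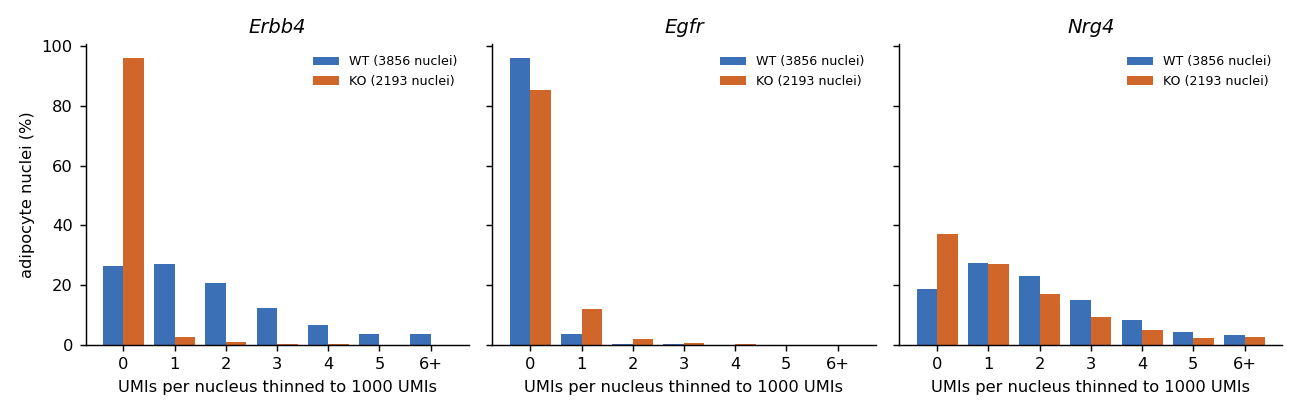
Share of adipocyte nuclei (%) by the number of Erbb4, Egfr or Nrg4 UMIs after each nucleus was thinned to 1000 UMIs, for 3856 WT (blue) and 2193 KO (orange) nuclei. The Erbb4 panel shows nearly all KO nuclei at 0 while 73.8% of WT nuclei hold at least 1 UMI, and Egfr is found in 4.02% of WT and 14.7% of KO nuclei.

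Across the WT classes, Erbb4 was ordered as adipocytes with 1755 CPM, mural nuclei with 669, ASPCs with 540.0, endothelial nuclei with 305 and macrophages with 255, and the counting intervals of neighbours did not overlap. In KO, adipocytes with 51.1 CPM stood above endothelial nuclei with 10.5 (7.40 to 14.4), mural nuclei with 10.0 (5.60 to 16.5), macrophages with 5.85 (4.64 to 7.27) and ASPCs with 5.41 (4.10 to 7.01). The endothelial and mural intervals overlapped there, as did those of macrophages and ASPCs. The KO level was therefore lower in all 5 classes, with log2 ratios of -6.64 in ASPCs, -6.06 in mural nuclei, -5.45 in macrophages and -4.87 in endothelial nuclei.

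The level of Erbb4 outside adipocytes moved with that of Ucp1, the uncoupling protein of brown adipocytes. Ucp1 had 1822 CPM in WT and 60.1 CPM in KO adipocytes. In WT, Ucp1 had 648 CPM in ASPCs, 677 in endothelial nuclei, 445 in macrophages and 881 in mural nuclei. Per 1000 Ucp1 UMIs, WT adipocytes had 963 Erbb4 UMIs (953 to 974), ASPCs 833 (777 to 894), mural nuclei 759 (712 to 810), macrophages 574 (519 to 634) and endothelial nuclei 451 (428 to 475). In the 2890 WT nuclei without a class that had under 1500 UMIs the value was 458 (437 to 481), and in KO adipocytes it was 850.1 (780 to 927). It was 1163 (780 to 1740) in KO ASPCs and 1227 (876 to 1725) in KO macrophages, from 49 and 66 Ucp1 UMIs. Within WT, the ratio was highest in adipocytes, and the interval of endothelial nuclei overlapped that of the shallow nuclei. In KO endothelial nuclei it was 422 (281 to 623) and in KO mural nuclei 405 (207 to 757), from 90 and 37 Ucp1 UMIs. Within KO, the interval of adipocytes overlapped those of ASPCs and macrophages and lay above those of endothelial and mural nuclei. The part of free RNA in the Erbb4 of other classes was not tested.

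**Figure D3:**
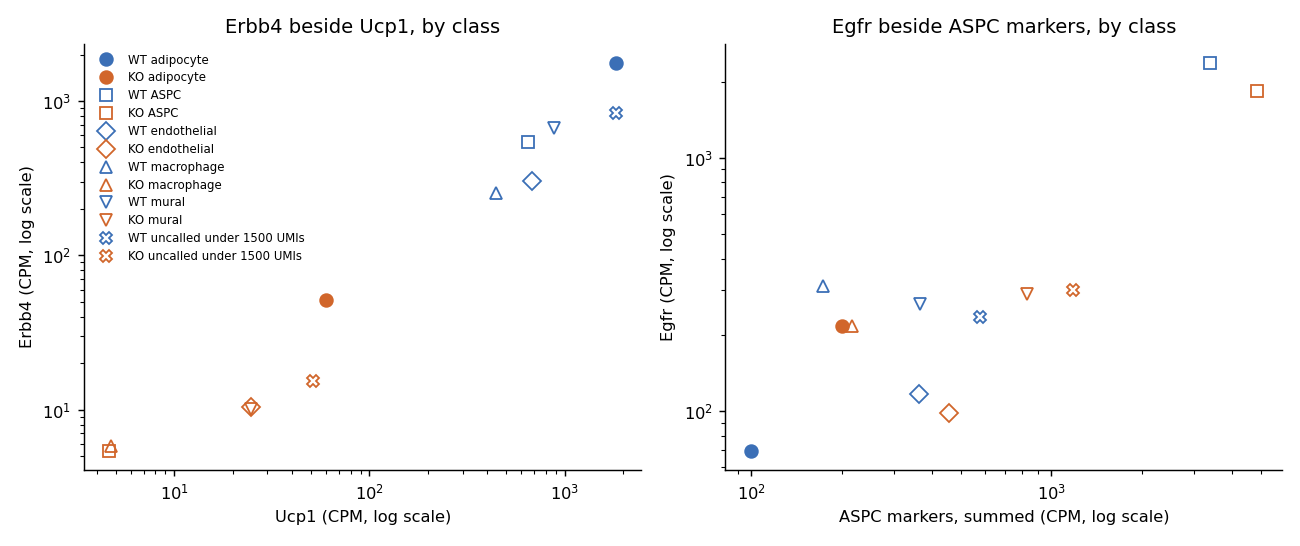
Left, Erbb4 against Ucp1, and right, Egfr against the summed ASPC markers, in CPM on log scales, with 1 symbol per class and library (blue, WT; orange, KO; filled, adipocytes; crosses, nuclei without a class under 1500 UMIs). Erbb4 and Ucp1 were lower together in every KO class, while Egfr of KO adipocytes lay near that of KO macrophages, at a similar level of ASPC markers.

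The remaining KO Erbb4 was unevenly spread. The 1957 KO UMIs lay in 583 nuclei of all classes, and 89 nuclei held 50% of them. In adipocytes, 64 of 2219 KO nuclei had at least 5 Erbb4 UMIs and held 59.4% of the class's Erbb4, against 3137 of 3871 WT nuclei. These limits were set after the data had been seen. The 64 nuclei were deeper, with a median of 9335 UMIs against 6481 in the 1950 nuclei with 0.

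Some adipocyte RNA differed with Erbb4 in these KO nuclei. Ucp1 had 54.4 CPM (50.9 to 58.2) in the nuclei with 0 Erbb4 UMIs, 74.7 (64.0 to 86.7) in the 205 nuclei with 1 to 4, and 127 (104 to 154) in the 64 with at least 5. Ppargc1a, a coactivator of thermogenic genes, had 452 CPM (442 to 463), 600 (568 to 632) and 760 (702 to 822). Nrg4 had 1263 CPM (1245 to 1281), 1273 (1227 to 1320) and 1602 (1517 to 1691). All 3 were highest in the nuclei with at least 5 Erbb4 UMIs, and the interval of the highest group did not overlap that of the nuclei with 0. Adipoq, which encodes adiponectin, went the other way with 68.0 CPM (64.0 to 72.2), 59.2 (49.7 to 70.0) and 40.9 (28.3 to 57.1). Plin1, which encodes a lipid droplet protein, had 1195, 1128 and 1119 CPM. Adipoq and Plin1 are among the markers used to call adipocyte nuclei, so their levels depend on the calls, whose part here was not tested. WT adipocyte nuclei with 0, 1 to 4 and at least 5 Erbb4 UMIs had 1127, 1785 and 1844 CPM of Ucp1, 3583, 4597 and 5429 CPM of Ppargc1a, and 1720, 1845 and 1982 CPM of Nrg4, so these 3 genes had the same order in both libraries. In KO, Srsf1 had 62.0 CPM (58.2 to 66.0), 60.9 (51.3 to 71.8) and 45.7 (32.3 to 62.7), with overlapping intervals in all 3 groups. Egfr had 218 CPM (210.3 to 225), 233 (214 to 254) and 178 (150 to 209). Part of the grouping follows depth, whose part in these differences was not tested.

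**Figure D4:**
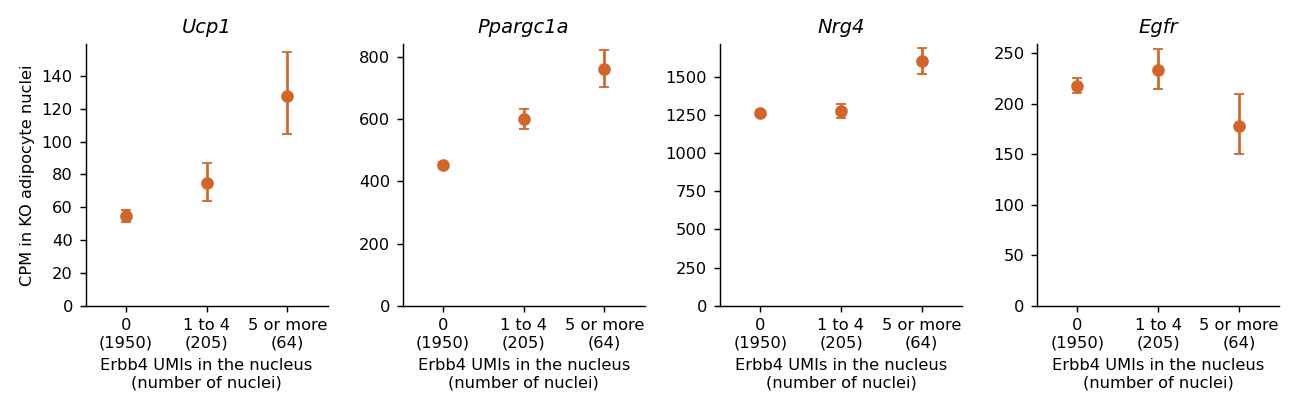
CPM of Ucp1, Ppargc1a, Nrg4 and Egfr in KO adipocyte nuclei with 0, 1 to 4, and 5 or more Erbb4 UMIs (1950, 205 and 64 nuclei), with exact 95% Poisson intervals, each axis starting at 0. Ucp1 was 54.4, 74.7 and 127 CPM from the first to the last group, and Egfr had overlapping intervals in the first 2 groups.

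Erbb4 also stood out in KO skeletal muscle nuclei, which had 38 UMIs in 17 nuclei, or 528 CPM, with 0 Ucp1 UMIs. Of these, 30 lay in 1 nucleus, and 8 UMIs, or 119 CPM (51.5 to 235), were left without it. The WT skeletal muscle nuclei had 579 CPM of Erbb4 in 33 nuclei, beside 1117 CPM of Ucp1.

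Egfr (ENSMUSG00000020122), on the plus strand of chromosome 11 from 16752203 to 16918158, was lower in WT adipocytes than in the other 4 large classes and higher in KO adipocytes. WT adipocyte nuclei held 2402 Egfr UMIs, or 69.8 CPM (67.0 to 72.7), and KO ones 4133, or 218 CPM (211 to 224), a 3.12-fold higher level with a log2 ratio of 1.64 (1.57 to 1.71). The unthinned share of adipocyte nuclei with a UMI was 17.7% in WT and 47.6% in KO, and the thinned share was 4.02% (3.42 to 4.69) and 14.7% (13.2 to 16.2). In KO endothelial nuclei the thinned share was 7.00% (5.61 to 8.62), below that of KO adipocytes, and in WT endothelial nuclei it was 5.20% (4.32 to 6.19), above that of WT adipocytes. Of the 17056 genes, 2698 had a higher ratio than Egfr, so a ratio of this size was common in adipocytes. The antisense gene Egfros had 211 UMIs in WT and 48 in KO adipocytes, and whether counting used strand is not stated in the sources used here.

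Among the classes, Egfr was highest in ASPCs in both libraries. Egfr had 2359 CPM (2302 to 2418) in WT and 1843 CPM (1817 to 1869) in KO ASPCs, a log2 ratio of -0.36 (-0.40 to -0.32). ASPCs held 35.5% of all Egfr UMIs in WT with 3.42% of all UMIs, and 50.8% in KO with 14.4% of all UMIs. Macrophages had 313 CPM in WT and 216 in KO (log2 ratio -0.53, -0.65 to -0.42), mural nuclei 265 and 290 CPM (0.13, -0.05 to 0.30), and endothelial nuclei 117 and 98.3 CPM (-0.25, -0.43 to -0.06). In smaller classes, Schwann nuclei had 53.7 CPM in WT and 459 in KO, from 21 and 103 UMIs, and lymphocytes 17.2 and 391 CPM, from 3 and 184 UMIs. ASPC markers summed to 1532 and 2050 CPM in those Schwann nuclei and to 109 and 588 CPM in the lymphocytes. Only 15 of 32 KO Schwann nuclei and 32 of 106 KO lymphocytes held an Egfr UMI. Without the 10 KO nuclei with most Egfr, 5 UMIs, or 68.6 CPM (22.3 to 160.1), were left in KO Schwann nuclei. In KO lymphocytes 32 UMIs, or 94.2 CPM (64.4 to 133), were left. No WT nuclei were left out, so these values are not compared with WT. Nuclei without a class had 232 and 444 CPM of Egfr. Among the 5 large classes, the WT order was ASPCs, macrophages, mural nuclei, endothelial nuclei and adipocytes, with intervals that did not overlap between neighbours. In KO it was ASPCs, mural nuclei, adipocytes, macrophages and endothelial nuclei, and the intervals of adipocytes (211 to 224) and macrophages (208 to 224) overlapped.

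Markers of ASPCs moved with the Egfr of adipocyte nuclei. The 7 ASPC markers summed to 99.4 CPM in WT and 201 CPM in KO adipocyte nuclei, against 3379 and 4860 CPM in ASPCs. Per 1000 ASPC marker UMIs, Egfr had 702 UMIs (666 to 740.2) in WT adipocytes and 698 (676 to 721) in WT ASPCs. In KO the value was 1083 (1036 to 1132) in adipocytes and 379 (373 to 386) in ASPCs. The intervals of WT adipocytes and ASPCs overlapped, and the KO value was higher in adipocytes than in ASPCs. Macrophages had 1801 (1596 to 2035) in WT and 994 (945 to 1046) in KO, and the KO interval overlapped that of KO adipocytes. Mural nuclei had 728 and 349, and endothelial nuclei 322 and 215. Adipocyte nuclei with 0 UMIs of the ASPC markers, an alternative added after the data had been seen, numbered 2233 in WT and 1057 in KO. Their Egfr level was 28.5 CPM (26.0 to 31.2) in WT and 170 CPM (161 to 180.2) in KO, with a log2 ratio of 2.58. The part of ASPC RNA in the Egfr of adipocyte nuclei was not tested.

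The ASPCs were not uniform in Egfr. The members were kept out of the genes used for clustering, and 2 clusters with nuclei of both libraries were mostly of ASPC calls. In the cluster led by Itgbl1, C7 and Hmcn2 (143 WT and 1251 KO nuclei), Egfr had 2853 CPM in WT and 1898 in KO, a log2 ratio of -0.59 (-0.65 to -0.53). In the cluster led by Adamts16, Dpp4 and Sema3c (70 WT and 626 KO nuclei) it had 3144 CPM in WT and 1383 in KO, a log2 ratio of -1.19 (-1.28 to -1.09). Egfr was lower in KO in both, and the intervals of their ratios did not overlap. In the macrophage cluster with 189 WT and 2600 KO nuclei the log2 ratio was -0.90 (-1.06 to -0.73). A cluster led by Cadm2, Cdh19 and Slc35f1, given no class, held 9052 of the 18050 WT Egfr UMIs. Over its 779 WT and 64 KO nuclei Egfr had 697 and 665 CPM (-0.07, -0.22 to 0.08).

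A cluster of adipocyte nuclei led by Nnat, Mageb18 and Cyp2e1 held nuclei of both libraries, 295 WT and 65 KO. Its Erbb4 was 939 CPM in WT and 3.75 CPM in KO, from 2997 and 2 UMIs. Its Egfr was 137 CPM in WT and 255 in KO (log2 ratio 0.90, 0.61 to 1.18), and its Nrg4 was 1713 and 1577 CPM (-0.12, -0.23 to -0.01). The other clusters in which adipocyte calls were the majority came almost wholly from 1 library each. Over all their nuclei, called as adipocytes or not, Egfr had 24.8 CPM in the 3712 WT nuclei of one and 182 CPM in the 2292 KO nuclei of the other. A cluster mostly of 1 library may be that library and not a cell type.

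The remaining receptors had few UMIs. Their genes are shorter, at 25.2 kb for Erbb2 and 22.1 kb for Erbb3, against 1075.9 kb for Erbb4 and 166.0 kb for Egfr. Erbb2, the partner receptor, had 226 UMIs over the WT library and 240 over the KO library, a level of 2.85 and 3.28 CPM (log2 ratio 0.20, -0.06 to 0.47). Its highest level among the 5 classes was in endothelial nuclei, with 12.5 CPM in WT and 14.3 CPM in KO (0.19, -0.33 to 0.71). In adipocytes it had 18 and 24 UMIs, or 0.523 and 1.26 CPM (1.27, 0.33 to 2.24). Erbb3, a neuregulin receptor of Schwann cells, was counted in Schwann nuclei with 34 UMIs over 79 WT nuclei, or 87.0 CPM, and 22 over 32 KO nuclei, or 98.0 CPM (0.17, -0.67 to 0.99). Its highest level was in Schwann nuclei in both libraries, and in adipocytes it had 35 and 37 UMIs, or 1.02 and 1.95 CPM. The KO Schwann class was below 50 nuclei and held 2050 CPM of ASPC markers beside 2816 CPM of Schwann markers.

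Nrg4 (ENSMUSG00000032311), on the minus strand of chromosome 9 from 55220222 to 55326844, was detected in most adipocyte nuclei of both libraries. Its 67515 UMIs in WT adipocytes gave 1962 CPM (1947 to 1977), and its 24280 in KO adipocytes 1279 CPM (1263 to 1295). The level was 1.53-fold lower in KO, with a log2 ratio of -0.62 (-0.64 to -0.60). The thinned share of adipocyte nuclei with a UMI was 81.3% in WT and 62.8% in KO, while the unthinned one was 99.2% and 91.7%. In endothelial nuclei the thinned share was 25.6% in WT and 11.3% in KO, and the unthinned one 46.7% and 24.4%. Unlike Erbb4 and Ucp1, Nrg4 kept most of its adipocyte level in KO, so that Nrg4 UMIs per 1000 Ucp1 UMIs were 1077 in WT and 21280 in KO adipocytes. Fbxo22, which overlaps Nrg4 on the opposite strand, had 203 CPM in WT and 32.8 in KO adipocytes.

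Nrg4 was also lower in KO outside adipocytes. With classes from marker sums, its log2 ratio was -3.07 in ASPCs (556 and 66.4 CPM), -2.44 in macrophages (322 and 59.5 CPM), -2.29 in mural nuclei (866 and 178 CPM) and -1.34 in endothelial nuclei (358 and 141 CPM). With classes from clusters the ratio was -0.69 in ASPCs and -1.31 in macrophages, beside -0.59 in adipocytes. In the cluster led by Adamts16, Dpp4 and Sema3c, Nrg4 had 157 CPM in WT and 202 in KO (0.36, -0.02 to 0.77). Adipocytes held 57.3% of all Nrg4 UMIs in WT and 63.1% in KO, and nuclei without a class 35.8% and 30.2%. The adipocyte markers in those 4 classes were also lower in KO, as given above, and their part in the Nrg4 values was not tested.

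Btc (ENSMUSG00000082361), on the minus strand of chromosome 5 from 91357261 to 91402994, encodes betacellulin, a ligand of EGFR and ERBB4. WT adipocyte nuclei held 1542 Btc UMIs and KO ones 68, which gave 44.8 CPM (42.6 to 47.1) and 3.58 CPM (2.78 to 4.54), a 12.5-fold lower level with a log2 ratio of -3.65 (-4.02 to -3.29). Of the 17056 genes, 337 had a lower ratio. In ASPCs Btc had 54 and 25 UMIs, or 19.9 and 2.37 CPM, and in mural nuclei 50 and 0 UMIs, or 20.3 CPM and an upper limit of 2.00 CPM from 3 counts. Per 1000 Ucp1 UMIs, Btc had 24.6 UMIs (23.4 to 25.9) in WT adipocytes, 30.7 (23.0 to 40.3) in WT ASPCs and 23.0 (17.0 to 30.4) in WT mural nuclei, intervals that overlap, and 14.3 (11.03 to 18.3) in WT endothelial nuclei. In KO the value was 59.6 (46.0 to 76.2) in adipocytes and 510 (302 to 842) in ASPCs, intervals that did not overlap. It was 121 (50.2 to 253) in KO macrophages and 33.3 (6.75 to 101) in KO endothelial nuclei, from 8 and 3 Btc UMIs, and both intervals overlapped that of KO adipocytes. The 64 KO adipocyte nuclei with at least 5 Erbb4 UMIs held 0 Btc UMIs, which allows up to 3.61 CPM from 3 counts.

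Nrg1 (ENSMUSG00000062991), a neuregulin that binds ERBB3 and ERBB4, on the minus strand of chromosome 8 from 31814551 to 32884029, was scarce and higher in KO. The WT library held 209 Nrg1 UMIs and the KO library 1016, which is 2.63 and 13.9 CPM. In adipocytes it had 29 and 86 UMIs, or 0.843 and 4.53 CPM (log2 ratio 2.43, 1.80 to 3.09), and in ASPCs 49 and 316 UMIs, or 18.1 and 29.99 CPM (0.73, 0.29 to 1.20). A few nuclei carried much of it, and 18 KO nuclei held 50% of the 1016 UMIs. The 3 KO nuclei with most Nrg1 had 93, 54 and 52 UMIs and received no class. They held 100, 19 and 40 UMIs of ASPC markers and 153, 42 and 168 UMIs of adipocyte markers. The third also held 37 UMIs of macrophage markers. Within the ASPC class, the WT UMIs lay in 14 of 386 nuclei with up to 13 in 1 nucleus, and the KO UMIs in 69 of 1701 with up to 45. Among the alternatives, the ASPC log2 ratio went from 0.40 with the stricter class call to 3.06 with classes from clusters. It was 0.53 with no filter and 1.56 as a mean over nuclei. Without the 10 KO nuclei with most Nrg1, KO ASPCs had 12.8 CPM (10.7 to 15.2). WT ASPCs, with none left out, had 18.1 CPM. The cluster led by Itgbl1, C7 and Hmcn2 had 5.54 CPM of Nrg1 in WT and 59.7 in KO, from 5 and 515 UMIs, and the cluster led by Adamts16, Dpp4 and Sema3c had 2 and 22, or 5.16 and 6.75 CPM. KO lymphocytes had 30 Nrg1 UMIs in 106 nuclei, of which 28 lay in 1 nucleus.

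Hbegf (ENSMUSG00000024486), Areg and Ereg, ligands of EGFR, were near the limit of detection. The WT library held 48 Hbegf UMIs and the KO library 283, and 89 of the KO UMIs came from 1 nucleus of 46207 UMIs without a class. That nucleus held 64 UMIs of adipocyte markers and 95 of macrophage markers. In adipocytes Hbegf had 5 and 28 UMIs, or 0.145 and 1.47 CPM (log2 ratio 3.34, 1.95 to 5.07), and in endothelial nuclei 15 and 19 UMIs, or 2.24 and 5.23 CPM (1.23, 0.17 to 2.31). The endothelial cluster led by Nebl, Mannr and Bmx had 2.54 CPM over its 403 WT nuclei and 45.5 CPM over its 102 KO nuclei, from 5 and 16 UMIs. Areg had 1 UMI in WT and 10 in KO, and Ereg had 0 and 9, which allows up to 0.0378 CPM of Ereg in WT from 3 counts. No level of Areg or Ereg was detectable in WT adipocytes at this depth.

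In adipocytes, 8 of the 10 members reached 20 UMIs over both libraries, and Areg and Ereg did not. Erbb4 and Btc were at least 2-fold lower in KO, which is 2 of 8 members, beside 17.3% of all 17056 genes. Egfr, Erbb2, Nrg1 and Hbegf were at least 2-fold higher, which is 4 of 8, beside 26.0% of all genes. The members were chosen on this contrast, so nothing is read from these shares. The median log2 ratio was 1.11 over the 8 members and 0.17 over all genes, so ratios relative to the other genes are lower by 0.17. In ASPCs 3 of 7 members (Erbb4, Nrg4 and Btc) were 2-fold lower, beside 16.9% of genes, and 1 (Erbb3, from 2 and 19 UMIs) 2-fold higher, beside 7.11%. In endothelial nuclei the same 3 of 6 were lower, beside 14.6%, and Hbegf was higher, beside 5.75%. In macrophages they were lower among 7, beside 16.3%, and Hbegf, from 1 and 21 UMIs, was higher, beside 6.06%. In mural nuclei they were lower among 5, beside 13.2%, and Erbb2, from 9 and 12 UMIs, was higher, beside 9.53%.

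**Figure D5:**
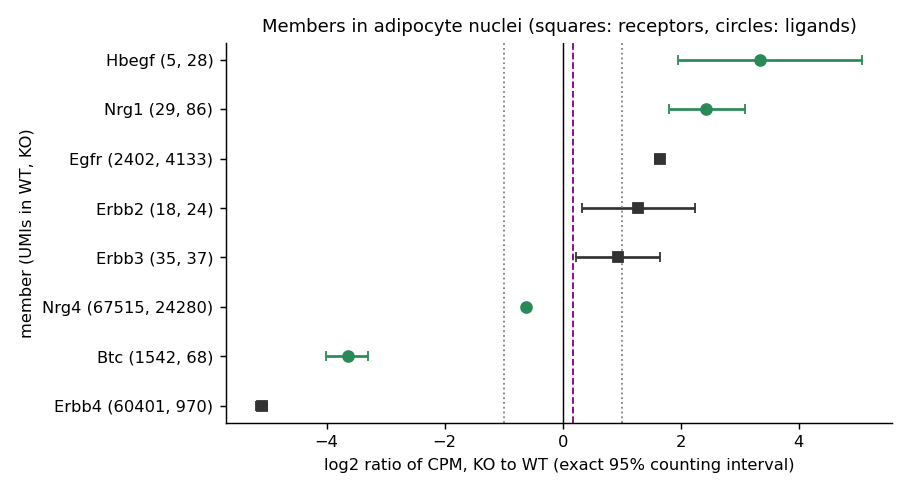
Log2 ratio of CPM, KO to WT, of the 8 members with at least 20 UMIs in adipocyte nuclei, with exact 95% counting intervals and the UMIs of both libraries beside each name. Squares are receptors and circles ligands, dotted lines mark 2-fold, and the dashed line is the median of all genes at 0.17. Erbb4 at -5.10 and Btc at -3.65 lie far below the other members.

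The other genes of the pathway were counted in adipocyte nuclei from 8 lists, whose 72 genes included 68 with at least 20 UMIs. Of these, 20 were at least 2-fold higher in KO, 3 at least 2-fold lower and 45 in between, beside 26.0% and 17.3% of all genes. Among the other ERBB ligands, 2 of 3 were higher: Nrg2, a neuregulin, with 7.90 CPM in WT and 50.8 in KO (log2 ratio 2.68), and Tgfa, a ligand of EGFR, with 0.988 and 2.53 CPM (1.36). Of the proteases and partners that release ligands, 3 of 7 were higher and 1 lower. Adam19, a neuregulin-cleaving protease, had 9.10 and 55.9 CPM (2.62), Rhbdf1, a partner of ADAM17, had 4.74 and 12.0 CPM (1.34), and Adam12, a membrane protease that cleaves HB-EGF, had 2357 and 641 CPM (-1.88).

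Among the feedback inhibitors and ubiquitin ligases, 9 of 10 lay within 2-fold, and Cbl, which ubiquitinates EGFR, was higher with 86.5 and 178 CPM (1.04). Of the adaptors, 5 of 11 were higher, led among those with at least 50 UMIs by Shc2 from 22 and 46 UMIs (1.92) and Nck2 with 18.5 and 69.8 CPM (1.91). The RAS-ERK kinases were within 2-fold in 9 of 10 genes, and Araf had 60.8 and 25.5 CPM (-1.25). In the PI3K-AKT list 7 of 9 lay within 2-fold, and Pik3r1, the regulatory subunit of PI3K, had 620 and 288 CPM (-1.11). Of the STAT and PLC-gamma genes 2 of 5 were higher, Plcg2 with 3.43 and 16.4 CPM (2.26) and Stat5b with 137 and 294 CPM (1.10).

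The ERK targets had 6 of 13 genes at least 2-fold higher and none at least 2-fold lower, beside 26.0% and 17.3% of all genes. Fosl1, an AP-1 transcription factor, had 7 and 113 UMIs, or 0.203 and 5.95 CPM (4.87), and Egr1, an immediate early gene, had 4.21 and 41.1 CPM (3.29). The list median was 0.76, against 0.17 over all genes. Macrophage markers, at 39.9 CPM in WT and 209 CPM in KO adipocyte nuclei, moved with these values, and their part was not tested.

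The genes most like Erbb4 across 10 sums of UMIs, of 5 classes in 2 libraries, were Slc27a2, Gm15738, Gm10032, Gm36388 and Coq8a, with Pearson's r of log2(CPM + 1) from 0.992 to 0.998. Slc27a2, a very long-chain acyl-CoA synthetase, had 256 CPM in WT and 7.59 in KO adipocytes, and Coq8a, a gene of coenzyme Q synthesis, had 205 and 22.7 CPM. The genes most like Egfr were Cdc16, Slc7a11, Ms4a4d, Aox3 and Pxylp1, with r from 0.959 to 0.987, and Slc7a11, the cystine transporter subunit, had 125 and 77.0 CPM in ASPCs. Those most like Nrg4 were Acvr1c, Pdk4, Kng2, Trim67 and 4931428L18Rik, with r from 0.992 to 0.998. Acvr1c, the activin receptor ALK7 of adipocytes, had 641 and 391 CPM in adipocytes. It is also among the markers used to call adipocyte nuclei, so its levels by class depend on the calls. The 10 sums share 2 libraries and their depth, so r is a description over 13888 genes with at least 200 UMIs.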

How the data were processed

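Single-nucleus RNA-seq of BAT was analysed from 1 WT and 1 KO library. UMI counts of genes by barcode were deposited by the authors without normalization, from reads aligned to GRCm38; the submitters' processing notes name Cell Ranger 5.0.0 and Seurat 3.1.1, while the paper's methods give an earlier version of Cell Ranger. Whether intronic reads were counted is not given in the sources used here. The WT matrix held 12846 barcodes and 93102814 UMIs and the KO matrix 11495 barcodes and 80090208 UMIs, with medians of 3440 and 4363 UMIs per barcode.

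Nuclei were kept with at least 200 genes, log UMIs and genes within 3 median absolute deviations and a mitochondrial share of at most 10% (12771 WT and 11378 KO nuclei). Each nucleus took 1 of 11 classes by the multinomial likelihood of its marker UMIs, with at least 5 marker UMIs of 2 or more genes of that list and a lead of 2 in log likelihood. Profiles started from nuclei with 3 times the pooled share and 3 genes of a list. Scrublet scores were computed and no doublet was removed; Scrublet called 0 WT and 20.6% of KO nuclei, so it did not work in WT. Leiden clusters (23) used 2000 variable genes without the members, 30 components, 15 neighbours and resolution 0.5.

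UMIs were summed per class and library and scaled to 1000000 (CPM). Intervals are exact Poisson for levels, Clopper-Pearson for shares and conditional binomial for ratios, at 95%; they and the limit of 3 counts for 0 cover counting error only. Each genotype had 1 library, so there were no replicates, and no test was run. A gene counted as past 2-fold from its CPM ratio if it had at least 20 UMIs over both libraries. Named genes were the members, the 2 largest ratios each way per pathway list among genes past 2-fold with at least 50 UMIs, the 5 genes most like Erbb4, Egfr and Nrg4, and Srsf1 and Ucp1; Ppargc1a, overlapping genes and the leading genes of clusters were named besides, and 1 gene of this rule is not reported here. The members, lists and rules were chosen with earlier results of these data known. Gene positions are from GENCODE M21 (GRCm38). The ratio was tested on simulated data. Alternatives covered filters, class calls, clusters, doublet scores, scaling, subtraction of the endothelial level and thinning. Tools were Python 3.11.15, numpy 2.4.6, scipy 1.17.1, pandas 2.3.3, scanpy 1.11.5, anndata 0.12.19, igraph 0.11.9, scikit-learn 1.9.0 and matplotlib 3.10.9.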

Additional observations from a re-analysis of the deposited data

Results flagged for a closer look

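Egfr differed in opposite directions between classes. The log2 ratio (KO to WT) was 1.64 in adipocyte nuclei and -0.36 in ASPC nuclei, and -0.53 in macrophage nuclei. It was also above 0 in Schwann nuclei (3.09, from 21 and 103 UMIs), lymphocytes (4.51, from 3 and 184 UMIs) and nuclei without a class (0.93). Only 15 of 32 KO Schwann nuclei and 32 of 106 KO lymphocytes held an Egfr UMI. Without the 10 KO nuclei with most Egfr, KO Schwann nuclei had 68.6 CPM and KO lymphocytes 94.2 CPM. The WT levels, with no nuclei left out, were 53.7 and 17.2 CPM. Each class had 1 library per genotype, and the difference between the classes was not tested.

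Nuclei without a class lay outside the comparisons of classes and held Hbegf and Nrg1 above the WT level. In KO they had 7.42 CPM of Hbegf, from 176 UMIs, against 0.716 CPM in WT, and 3.67 CPM (2.94 to 4.53) without the 1 nucleus that held most. They had 21.6 CPM of Nrg1, from 512 UMIs, against 3.51 CPM in WT, and 7.54 CPM (6.47 to 8.74) without the 10 nuclei that held most. WT nuclei were not left out in this way.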

How the results depend on the processing

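The adipocyte nuclei without ASPC marker UMIs were an alternative chosen after seeing the data. In adipocytes, Erbb4, Egfr, Nrg4 and the other 5 members with a ratio kept their direction under each alternative that gave a value. The Erbb4 log2 ratio went from -5.10 to -5.27 when centred on the median of all genes and to -4.96 as a mean over nuclei. The Egfr ratio of 1.64 became 1.91 with 500 to 5000 genes and at most 5% mitochondrial UMIs, 1.94 with no filter, 1.89 as a mean over nuclei, 2.34 with classes from Leiden clusters, 1.52 without the top 10% of doublet scores, 1.475 when centred and 2.58 in nuclei with 0 ASPC marker UMIs. The Nrg4 ratio of -0.62 became -0.54 with the limits on genes, -0.54 as a mean over nuclei, -0.59 with Leiden classes, -0.59 without the top doublet scores, -0.78 when centred, -0.50 after subtracting the endothelial level and -0.49 in nuclei with 0 ASPC marker UMIs. With a minimum of 50 UMIs, 2 members instead of 4 were at least 2-fold higher. For 4 members, Egfr among them, subtraction gave no value because the endothelial level was above that of adipocytes in at least 1 library. The cause of these changes was not tested.

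Outside adipocytes, 8 values changed sign. Egfr in endothelial nuclei went from -0.25 to 0.50 with Leiden classes, 0.085 as a mean over nuclei and 0.043 with no filter. In mural nuclei it went from 0.13 to -0.55 with the limits on genes, -0.24 as a mean over nuclei and -0.42 without the top doublet scores. Nrg1 in macrophages went from -0.26 to 0.94 with Leiden classes, and Erbb3 in Schwann nuclei from 0.17 to -0.43 with no filter. The 54 alternative values in ASPCs kept their direction. With 1 library per genotype no replicate could be left out. For the same reason no paired analysis was possible. Depth limits Areg, Ereg, Hbegf and Erbb2, which rest on few UMIs in adipocytes.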
